A study of Mus musculus with 3 samples.

Results

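The comparison of Dnmt3a KO with Dnmt TKO mouse ES cells asked which DNA methylation was still present without Dnmt3a but absent from cells that lack every active DNA methyltransferase, and where in the genome it lay. ES cells are the pluripotent cells taken from early embryos, and methylation was read by RRBS, which sequences the bisulfite-treated ends of MspI fragments and thereby favours CpG-rich DNA. CpGs were chosen by depth alone: the KO and TKO tables were joined by position, and the 332610 CpGs with more than 10 reads in both were kept, of 1388024 CpGs listed in any library of the series. In the joined set the median depth was 28 reads in Dnmt3a KO and 14 reads in Dnmt TKO. Of these CpGs, 283005 also had more than 10 reads in the wild-type library, which served as the reference for how much methylation had been there to keep.

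Each genotype was represented by 1 library, so no difference below has a replicate check. Dnmt3a KO cells (labelled Dnmt3A-KO) were of a mixed 129-C57Bl/6 background and were grown on gelatine, Dnmt TKO cells (labelled Dnmt-TKO) were of strain J1 on gelatine, and wild-type cells were of the mixed 129-C57Bl/6 background on feeder cells or gelatine; all were kept with serum and LIF. The KO line was made with CRISPR guides to an exon shared by both Dnmt3a isoforms, and the TKO cells lack Dnmt1, Dnmt3a and Dnmt3b. Genotype and strain cannot be told apart between KO and TKO. The knockout itself could not be read from these data, which hold counts of all and of methylated reads per CpG only. Nor did any library list a CpG in exon 7 of transcript Dnmt3a-001 (chromosome 12, 3895543 to 3895758, mm9), taken here as the targeted exon.

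In mammals DNMT1 copies methylation onto the new strand after replication, while DNMT3A and DNMT3B add it to unmethylated CpGs. ES cells express all of these enzymes, so methylation in Dnmt3a KO cells can still be set and copied by DNMT3B and DNMT1. Methylated DNA is typical of gene bodies, intergenic DNA and repeats, whereas most CpG-rich promoters of ES cells are free of it.

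The following stretches of mm9, all on the plus strand, show the kinds of sequence at which KO and TKO differed or did not. Capitals mark CpGs of the joined set, and stretches were placed so that they hold no UTR. The first lies in coding sequence of Olfr524, an olfactory receptor gene whose promoter had the largest difference (chr7:147388202-147388401). The second lies in an intron of Zscan20, a zinc finger gene whose body had the largest difference (chr4:128266358-128266557). The third lies in the intergenic window with the largest difference, nearest to the start of Gm4694 (chr9:123841373-123841572). The fourth shows the opposite case, coding sequence beside the start of Ecel1, a neuronal peptidase gene whose CpG-rich promoter was unmethylated (chr1:89050981-89051180). The fifth lies at the highest promoter of the imprinted genes described below, that of the non-coding RNA gene Meg3 (chr12:110787863-110788062). It is by a transcript start inside Meg3, and the gene itself starts at 110779211. The sixth lies at the highest promoter of the germline genes, that of the testis dipeptidase gene Dpep3 (chr8:108502986-108503185).
Olfr524: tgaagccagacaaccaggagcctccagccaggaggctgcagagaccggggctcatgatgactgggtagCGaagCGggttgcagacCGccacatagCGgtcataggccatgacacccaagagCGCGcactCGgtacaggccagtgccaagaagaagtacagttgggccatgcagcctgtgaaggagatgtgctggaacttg
Zscan20: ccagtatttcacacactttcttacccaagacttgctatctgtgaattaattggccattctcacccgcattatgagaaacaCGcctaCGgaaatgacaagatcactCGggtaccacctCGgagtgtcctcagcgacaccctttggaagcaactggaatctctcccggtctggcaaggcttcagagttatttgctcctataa
near Gm4694: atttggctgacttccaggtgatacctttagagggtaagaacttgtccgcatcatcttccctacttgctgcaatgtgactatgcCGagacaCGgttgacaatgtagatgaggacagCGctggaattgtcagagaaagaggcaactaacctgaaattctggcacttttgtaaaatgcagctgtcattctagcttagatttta
Ecel1: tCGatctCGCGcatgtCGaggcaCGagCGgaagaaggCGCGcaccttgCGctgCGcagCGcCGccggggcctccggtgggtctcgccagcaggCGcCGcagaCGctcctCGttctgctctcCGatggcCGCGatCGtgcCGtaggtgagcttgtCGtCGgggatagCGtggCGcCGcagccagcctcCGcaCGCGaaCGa
Meg3: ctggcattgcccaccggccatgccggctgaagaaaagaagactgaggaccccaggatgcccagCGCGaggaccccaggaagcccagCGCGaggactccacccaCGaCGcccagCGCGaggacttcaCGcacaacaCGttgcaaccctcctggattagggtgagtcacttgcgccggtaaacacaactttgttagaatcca
Dpep3: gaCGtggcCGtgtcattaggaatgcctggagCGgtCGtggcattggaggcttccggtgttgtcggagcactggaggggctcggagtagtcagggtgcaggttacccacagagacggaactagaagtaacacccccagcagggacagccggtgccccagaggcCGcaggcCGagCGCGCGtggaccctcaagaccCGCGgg

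The 7 CpGs in capitals at Olfr524 had 99 methylated of 115 reads in Dnmt3a KO and 0 of 81 reads in Dnmt TKO, with single CpGs between 72.2% and 94.4% in KO. At Zscan20, 33 of 44 KO reads and 0 of 46 TKO reads were methylated over 4 CpGs. At the 3 CpGs near Gm4694, 36 of 36 KO reads were methylated against 0 of 111 TKO reads. All 3 stretches are thus methylated at every joined CpG in KO and at none in TKO, and they hold few CpGs: 8, 7 and 4 CG dinucleotides in 200 bp. The Ecel1 stretch holds 33 CG dinucleotides, and its 30 joined CpGs had 1 methylated of 1607 KO reads and 0 of 621 TKO reads. In wild type the same 30 CpGs had a mean of 0.295%, so there was almost no methylation to keep.

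Over all joined CpGs, mean methylation was 13.1% in Dnmt3a KO and 0.0815% in Dnmt TKO, so KO was higher by 13.0 percentage points, with a 95% interval from 13.01 to 13.04. The interval was computed from pooled reads by the Newcombe method and centred on the mean over CpGs. Like all intervals below, it covers counting error only, since reads copied by PCR and neighbouring CpGs of 1 read enter as if independent. The value rests on which CpGs enter and on their weight: it was 6.78 points at the 42480 CpGs with more than 20 reads in both libraries, and 10.3 points from summed reads, that is, with deep CpGs counting for more. The KO levels were strongly uneven. No methylated KO read was found at 229745 CpGs (69.1%), although at the smallest depth of 11 reads a count of 0 still allows 27.3%. A level of at least 50% was seen at 46917 CpGs (14.1%), and at least 80% at 14190 CpGs (4.27%). In Dnmt TKO, 98.7% of the CpGs had no methylated read, and 5 CpGs reached 20%. Mitochondrial DNA, which is commonly taken as unmethylated, had a mean of 0.226% in KO and 0.132% in TKO over 67 joined CpGs.

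Fisher's exact test per CpG (two-sided, Benjamini-Hochberg q under 0.05 and at least 20 points), which compares the libraries and not the genotypes, called 51571 CpGs higher in Dnmt3a KO, or 15.5% of those tested. None was called lower, and 1 CpG was lower at an unadjusted p under 0.05. The called set is mainly the set of highly methylated KO CpGs. Of the 46917 CpGs at 50% or more in KO, 97.97% were called, while most of the 21666 CpGs at 20 to 50% were not.

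Methylation in Dnmt3a KO lay mostly outside promoters, here all positions within 1000 bp of the start of a protein-coding transcript. Starts of transcripts that begin inside a gene count as well. Promoters held 60.6% of the joined CpGs but 7.18% of the summed KO minus TKO difference. Exons of protein-coding genes outside promoters held 15.8% of the CpGs and 37.0% of the difference, introns 10.6% and 30.3%, and intergenic DNA 12.9% and 25.1%. Gene bodies as a whole, exons and introns together, thus carried more of the difference than promoters and intergenic DNA combined.

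**Figure D1:**
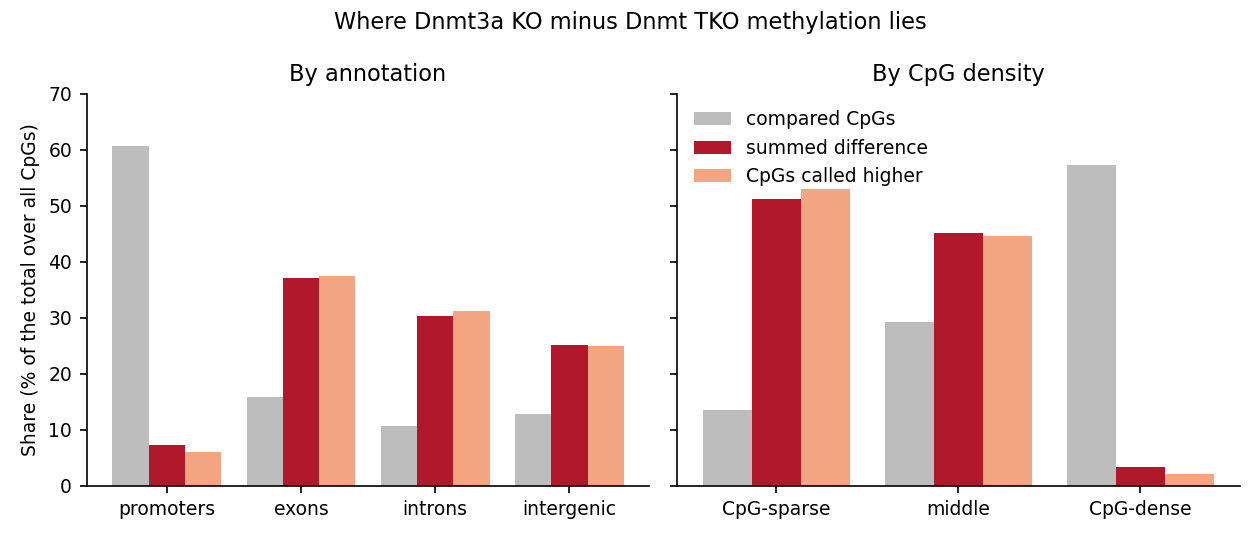
Shares of the 332610 joined CpGs (grey), of the summed Dnmt3a KO minus Dnmt TKO difference (red) and of the CpGs called higher in KO (orange), by annotation on the left and by CpG density on the right, in % of the total. Promoters and CpG-dense DNA hold most CpGs (60.6% and 57.2%) and little of the difference (7.18% and 3.37%).

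At the 201439 promoter CpGs, the mean was 1.59% in KO and 0.0456% in TKO, a difference of 1.54 points (95% interval 1.53 to 1.56). At the 52622 exonic CpGs it was 30.6% and 0.135%, a difference of 30.5 points (30.4 to 30.6). At the 35168 intronic CpGs it was 37.5% and 0.160%, a difference of 37.3 points (37.2 to 37.4). At the 42816 intergenic CpGs it was 25.6% and 0.120%, a difference of 25.4 points (25.4 to 25.5). With more than 20 reads in both libraries the exon difference was 19.8 points and the intergenic difference 13.9 points, and from summed reads the intergenic difference was 13.8 points and the promoter difference 4.58 points. Introns were therefore highest and promoters lowest. Of the promoter CpGs 1.55% were called higher, against 36.7% in exons, 45.6% in introns and 30.1% in intergenic DNA, beside 15.5% over all CpGs. Coding and non-coding exon parts hardly differed, at 30.5 and 30.7 points. Intergenic CpGs inside non-coding genes or pseudogenes had a difference of 15.3 points, and those in no gene 26.95 points.

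Promoters had the lowest mean of the classes and introns the highest on each of the 19 autosomes, and exons were above intergenic DNA on 16 of them. Over the 19 autosomes, the promoter mean lay between 0.501 and 2.04 points, the exon mean between 22.8 and 36.4, the intron mean between 27.96 and 42.4 and the intergenic mean between 16.8 and 33.6. Autosomes share the same libraries and are not replicates. Chromosomes 1 and 8 stood apart in depth: per 100 CpGs listed in wild type, Dnmt TKO listed 82.3 on chromosome 1 and 89.1 on chromosome 8, against 42.5 to 54.7 on the 17 other autosomes and 9.95 on X. In Dnmt3a KO these figures were 98.7 and 104, against 79.9 to 91.0 and 52.1 on X. On chromosomes 1 and 8 the intron difference was 41.9 points, against 35.2 on the other autosomes, and the intergenic difference was 32.4 against 23.0. Without both chromosomes the difference over all CpGs was 11.5 points, an alternative chosen after seeing the data.

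CpG density separated the CpGs further than annotation. Density was counted in mm9 as CpGs per 100 bp in the 200 bp around each CpG. CpG-sparse positions, under 4 per 100 bp, had a mean of 49.9% in KO and 0.172% in TKO, a difference of 49.7 points (95% interval 49.6 to 49.8, 44661 CpGs). CpG-dense positions, at 8 or more, had 0.813% and 0.0444%, a difference of 0.768 points (0.762 to 0.775, 190200 CpGs). Sparse CpGs made up 13.4% of the joined CpGs and 51.2% of the summed difference. In steps of density the difference fell at each step, from 54.7 points under 2 CpGs per 100 bp to 49.1, 30.7, 9.37, 1.99, 0.579 and, at 12 and over, 0.158 points.

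As means over CpGs, the difference fell with density inside every class, and promoters were below the other classes at equal density. At 2 to 4 CpGs per 100 bp the difference was 24.9 points in promoters, 56.5 in exons, 52.8 in introns and 47.5 in intergenic DNA. At 4 to 6 it was 7.67 points in promoters, 44.3 in exons, 39.0 in introns and 33.0 in intergenic DNA. At equal density exons were higher than introns, although over all CpGs introns were higher. At 12 and over, no class exceeded 0.840 points. At the sparse end the place of promoters turned with the weighting. From summed reads, promoters at 2 to 4 CpGs per 100 bp had 63.4 points, above 55.8 in exons, 51.8 in introns and 48.9 in intergenic DNA, and leaving out the most covered 1% they had 22.2 points, below 46.6 to 55.7 in the other classes. With more than 20 reads in both libraries they had 48.1 points over 266 CpGs, beside 49.2 in intergenic DNA. From summed reads the fall with density did not hold at each step. Promoters under 2 CpGs per 100 bp had 53.0 points, and intergenic DNA had 1.29 points at 10 to 12 and 1.37 points at 12 and over. For density steps, all of these settings were added once the data had been seen.

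**Figure D2:**
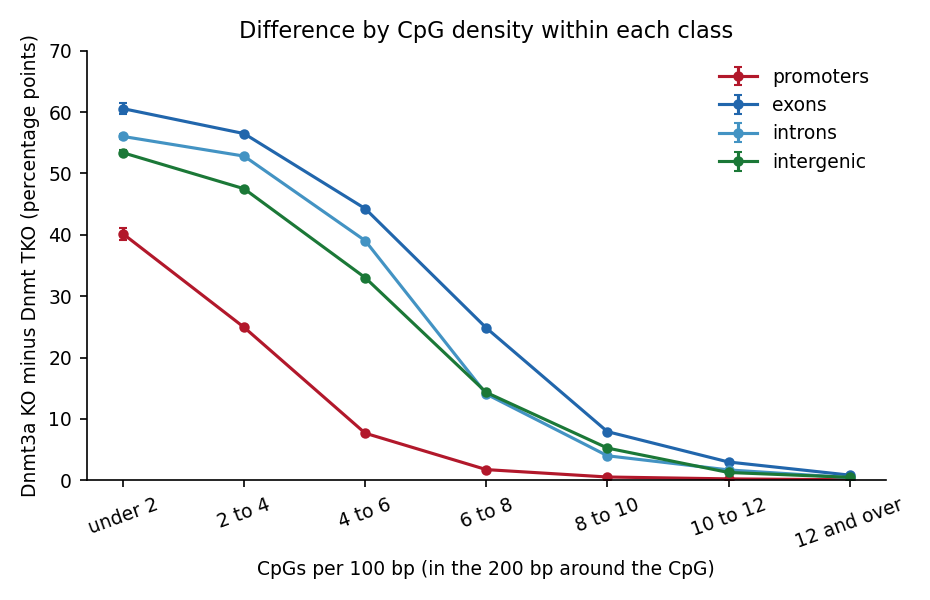
Dnmt3a KO minus Dnmt TKO methylation (percentage points, mean over CpGs) against CpG density (CpGs per 100 bp), with 1 line per class and 95% counting intervals. All 4 lines of means over CpGs fall with density, and promoters lie lowest, at 7.67 points for 4 to 6 CpGs per 100 bp against 33.0 to 44.3 in the other classes.

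With distance from the nearest protein-coding start, the difference increased from 1.04 points within 250 bp to 3.72 points at 500 to 1000 bp, 11.99 points at 1000 to 2000 bp and 24.4 points at 2000 to 5000 bp. It was 36.2 points at 10000 to 50000 bp and 39.8 points beyond 50000 bp. The last step did not hold under other settings chosen after seeing the data: from summed reads it was 30.5 and 15.3 points, and with more than 20 reads in both libraries 23.6 and 21.1 points. From summed reads without the highest 1% of coverage, the values were 30.5 and 34.7 points. The first step also turned from summed reads, with 4.79 points within 250 bp and 2.70 points at 250 to 500 bp. Without the highest 1% of coverage these were 0.676 and 0.960 points. At a fixed density of 4 to 6 CpGs per 100 bp it was 7.20 points within 250 bp, 6.10 points at 250 to 500 bp, 42.7 points at 10000 to 50000 bp and 48.5 points beyond 50000 bp. Relative to CpG islands, taken from the sequence as stretches of 500 bp whose GC content reached 55% and whose observed over expected CpG ratio reached 0.65, the difference was 1.39 points inside, 12.9 points up to 500 bp outside, 31.8 points at 500 to 2000 bp and 49.3 points beyond 20000 bp. Inside islands it was 0.386 points in promoters and 5.19 points elsewhere. Outside islands promoters were also lower as means over CpGs, with 19.7 points against 46.5. From summed reads this order turned, with 48.7 points in promoters against 44.8 elsewhere.

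**Figure D3:**
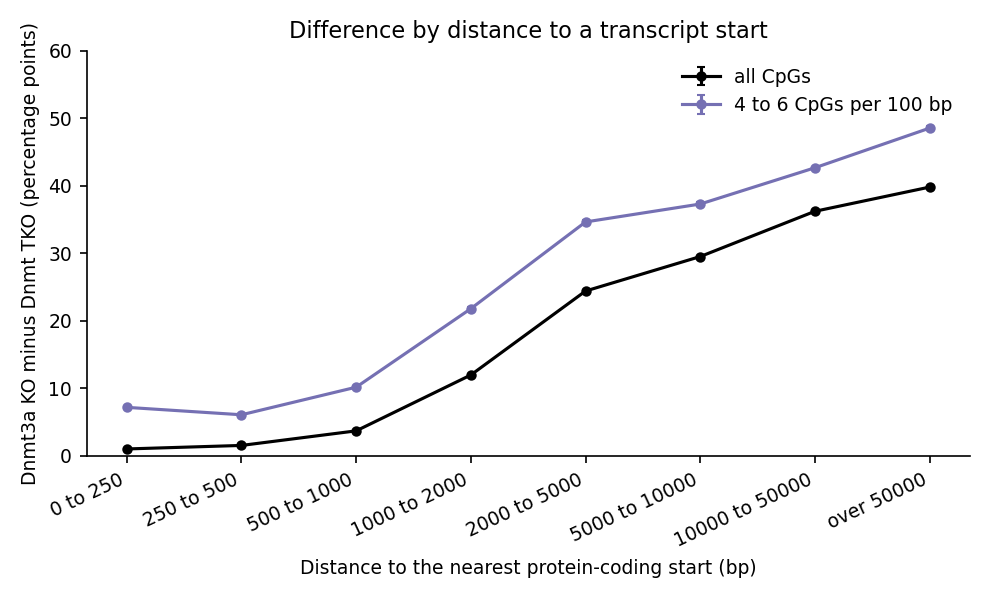
Dnmt3a KO minus Dnmt TKO methylation (percentage points) by distance to the nearest protein-coding start (bp), for all joined CpGs (black) and for those at 4 to 6 CpGs per 100 bp (purple), with 95% counting intervals. Both lines are low up to 1000 bp and reach 39.8 and 48.5 points beyond 50000 bp.

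Along gene bodies of at least 10000 bp, split into 5 equal parts in the direction of transcription and without promoters, the difference was 23.2, 37.5, 40.8, 44.7 and 37.7 points. It was thus lowest in the first part and highest in the fourth, where the median density was 4.5 CpGs per 100 bp, against 5.5 in the first.

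To set the KO level against the wild-type level, the share of wild-type methylation kept was taken as KO minus TKO divided by wild type minus TKO. Over the 283005 CpGs covered in all libraries, methylation averaged 14.1% in wild-type cells and 10.4% without Dnmt3a, and 73.5% was kept. Computed from summed reads in place of means over CpGs, this share was 100.6%, a value that the promoters of Gm10800 and Gm10801, described last, enter with many reads. Promoters kept 60.3%, exons 73.7%, intergenic DNA 74.6% and introns 76.3%. By density the share went from 84.5% under 2 CpGs per 100 bp to 49.7% at 12 and over. By distance from a start it went from 59.6% within 250 bp to 80.02% beyond 50000 bp, and from 55.1% inside islands to 79.2% beyond 20000 bp from islands.

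Along density, the kept share was also compared among CpGs of like wild-type level. At 20 to 50% in wild type the kept share was 83.2% under 2 CpGs per 100 bp and 47.6% at 8 to 10. At 50 to 80% it was 84.7% and 62.9%, and at 80% and over it was 84.4% and 82.5%, with 79.2% at 6 to 8 (1740 CpGs) and 65.5% at 10 to 12 (30 CpGs). Between classes the order changed with the wild-type level. At 20 to 50% promoters kept 53.0%, exons 54.0%, introns 55.1% and intergenic DNA 48.9%, and at 50 to 80% they kept 66.1%, 73.8%, 75.8% and 72.5%. Among CpGs of 80% and over, promoters kept 77.8%, exons 81.8%, introns 82.3% and intergenic DNA 83.8%. These bins use the wild-type library both to place a CpG and to compute its share.

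The kept share also differed with the base that follows the CG. In biochemical work DNMT3A is known to favour a pyrimidine after the CG and DNMT3B a purine. Each CpG was classed by the base after CG on both strands, leaving out CpGs at MspI sites, where that base is fixed. CpGs followed by a purine on both strands kept 85.9% (39160 CpGs, 16.9% in wild type and 14.5% in KO), those with a purine on 1 strand and a pyrimidine on the other 72.7% (158645 CpGs, 13.5% and 9.85%), and those followed by a pyrimidine on both strands 65.2% (78143 CpGs, 13.1% and 8.54%). The purine group was higher on 19 of 19 autosomes, by 18.3 to 24.8 percentage points with a median of 20.4. From summed reads the order turned, with 87.7%, 105.9% and 100.2%, and leaving out the most covered 1% of CpGs gave 86.1%, 72.8% and 64.3%. With more than 20 reads in all libraries the shares were 83.9%, 72.2% and 62.4%. These settings were likewise added later. Among single pairs, A on both strands kept 86.8% and C on both strands 61.2%.

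As means over CpGs, the same order was seen in every class and density step examined up to 10 CpGs per 100 bp. In promoters the kept share was 78.1% with purines and 50.03% with pyrimidines, in exons 87.5% and 64.4%, in introns 86.6% and 70.2% and in intergenic DNA 85.5% and 66.5%. At 8 to 10 CpGs per 100 bp it was 79.5% and 43.4%, and under 2 it was 92.4% and 77.3%. At 20 to 50% in wild type it was 74.7% and 39.0%, while at 80% and over it was 88.6% and 78.2%. In the Olfr524 stretch above, single CpGs of either kind were well methylated in KO, and 11 to 18 reads per CpG cannot show such a difference at 1 site.

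**Figure D4:**
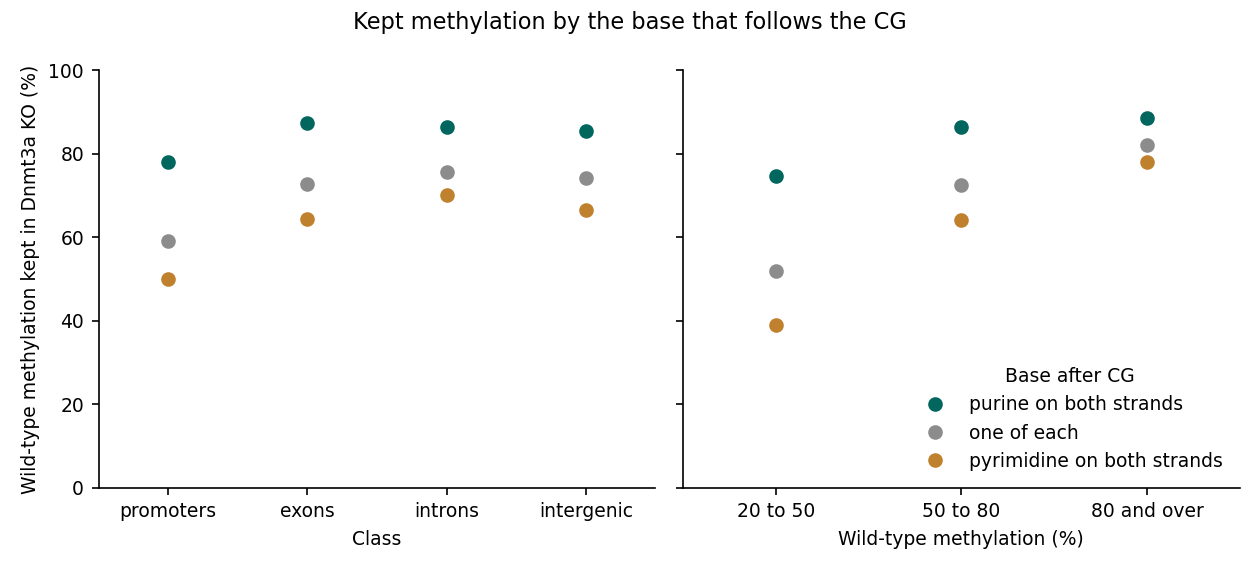
Share of wild-type methylation kept in Dnmt3a KO (%), by class on the left and by wild-type methylation level on the right, for CpGs followed by a purine on both strands (green), by a mixed pair (grey) or by a pyrimidine on both strands (brown). Purines lie highest and pyrimidines lowest in each column, from 74.7% against 39.0% at 20 to 50% to 88.6% against 78.2% at 80% and over.

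Single promoters were mostly empty in both libraries. Of 10212 protein-coding promoters with at least 5 joined CpGs, 85.3% had a difference under 1 point, the median was 0 points, and 104 reached 50 points. Of 2607 gene bodies with at least 10 joined CpGs, the median was 30.6 points and 772 reached 50 points. Of 2732 intergenic windows of 1000 bp with at least 5 CpGs, the median was 2.32 points, and 625 reached 50 points while 1150 were under 1 point.

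In 1884 genes both parts could be compared, and the body was higher than the promoter in 1704 of them. A promoter under 5 points with a body of at least 20 points was found in 1040 genes. The reverse, a promoter more than 20 points above its body, occurred in 16 genes, which were named after their values were seen. Among them are Acta1, which encodes skeletal muscle actin, with 54.2 points over 6 promoter CpGs and 10.3 points over 32 body CpGs, and Lyl1, a blood cell transcription factor, with 46.0 points over 5 promoter CpGs and 2.17 points over 23 body CpGs. Mid1, a ubiquitin ligase gene on X, had 69.5 points over 9 promoter CpGs and 23.8 points over 276 body CpGs. Il17c, Acta1, Wfdc1, Lyl1, Pde4c and Nxnl1 of the 16 lie on chromosome 8, and Espnl, Alppl2 and Slc4a3 on chromosome 1. These chromosomes and X stood apart in depth. The rest of the 16 lie on other chromosomes, and a link to depth was not tested.

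The 10 promoters with the largest difference lay between 78.1 and 86.2 points. Olfr524 led with 86.2% in KO and 0% in TKO over 7 CpGs (95% interval of the difference 77.4 to 91.3). Acsl6, which encodes a fatty acid activating enzyme of brain, had 78.9% in KO and 0% in TKO over 5 CpGs, beside 81.7% in wild type. Aldoc, the brain form of aldolase, had 78.7% and 0% over 5 CpGs. Lcat, whose enzyme esterifies cholesterol in plasma, had 79.5% in KO and 0.926% in TKO over 9 CpGs, beside 78.9% in wild type. Rp1l1, a photoreceptor gene, had 78.2% and 0% over 8 CpGs, and Col6a3, a collagen VI chain, 79.5% and 1.44% over 11 CpGs. The CpGs of Acsl6, Aldoc and Col6a3 lie by transcript starts inside these genes, not within 1000 bp of the gene start. Those of Rp1l1 lie by both kinds of start. The remaining members are Gm10401, 4732456N10Rik, Gm1840 and Gm5105. The median density at these promoters was between 3.5 and 5.5 CpGs per 100 bp in each, far under that of a CpG island promoter such as Ecel1.

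Gene bodies reached slightly higher values, with the first 10 between 82.5 and 88.6 points. Zscan20 had 88.6% in KO and 0% in TKO over 14 CpGs (95% interval 82.7 to 92.3). Zfp629, another zinc finger gene, had 86.5% and 0% over 45 CpGs, all exonic and all called higher, with 87.5% in wild type at the CpGs covered there. Pank4, of the pantothenate kinase family, had 88.9% and 0.699% over 13 CpGs. Hsd17b7, an enzyme of cholesterol and steroid synthesis, had 86.7% and 0% over 12 CpGs. Rtl1, an imprinted gene derived from a retrotransposon, had 85.2% and 0% over 11 CpGs. Stx16, Klhl25, Mical3, Hapln3 and Wdfy2 followed the same pattern. The 5 leading intergenic windows lay between 93.0 and 96.8 points, with 0 methylated TKO reads in each. The first, 4192 bp from the start of Gm4694, had 71 methylated of 74 reads in KO and 0 of 161 in TKO. The window with the most CpGs among them, near Zfp498 on chromosome 5, had 167 of 180 reads in KO and 0 of 92 in TKO over 7 CpGs.

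Promoters were also described by gene group. Beside 2.74% of all 10212 promoters, a difference of at least 20 points was seen at 9 of 17 imprinted promoters and 11 of 22 germline promoters, and at 0 of 10 pluripotency, 0 of 33 developmental, 0 of 21 housekeeping and 0 of 12 methylation machinery promoters. The 10212 are promoters of protein-coding genes, and of the imprinted promoters Meg3 and Airn are not; without them the imprinted count was 7 of 15. Members with fewer than 5 joined CpGs were not counted, so the lists of 23, 30, 18, 40, 25 and 15 genes are covered in part.

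**Figure D5:**
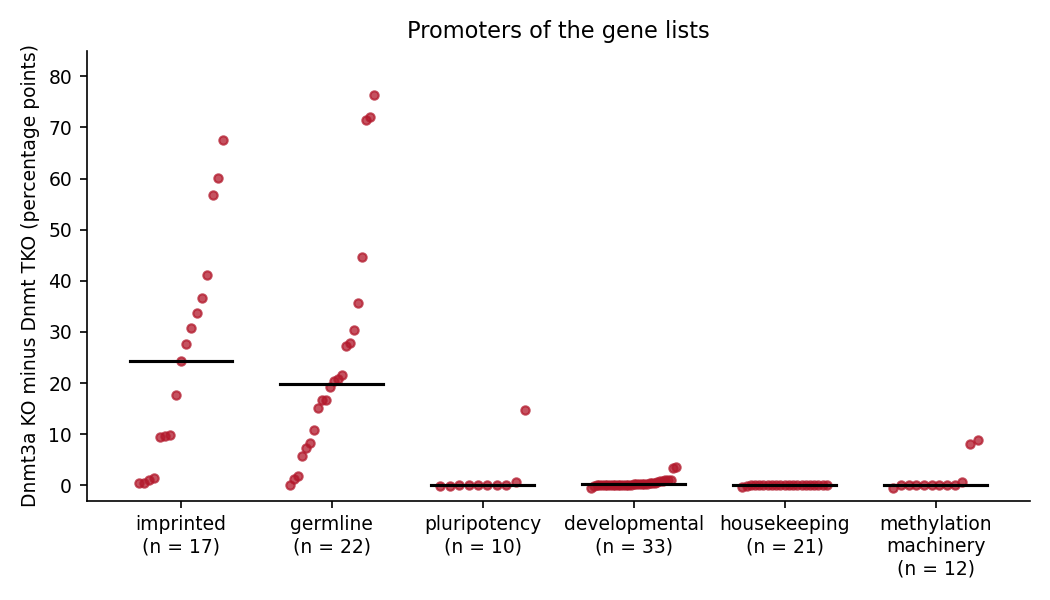
Dnmt3a KO minus Dnmt TKO methylation (percentage points) at promoters of 6 gene lists, 1 point per gene with at least 5 joined CpGs and a black bar at the median. Imprinted and germline promoters spread up to 67.6 and 76.3 points around medians of 24.3 and 19.8, and the highest point of the other lists is Sall4 with 14.8 points. Without the non-coding genes Meg3 and Airn the imprinted median is 17.7 points.

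Imprinted genes are expressed from 1 parental copy, and many carry a methylated and an unmethylated allele at a control region. Their median promoter difference was 24.3 points, and 17.7 points over the 15 promoters of protein-coding genes alone. Airn, a non-coding RNA that starts inside Igf2r, had 36.6% in KO and 0% in TKO over 9 CpGs, beside 39.1% in wild type. Snrpn had 30.7% and 0% over 8 CpGs, beside 33.1% in wild type, Mcts2 33.6% and 0% over 24 CpGs, beside 37.4%, and Zrsr1 41.2% and 0% over 31 CpGs, beside 37.3%. These 4 promoters kept between 90.0% and 110% of wild-type methylation. Nap1l5 kept 72.0% (28.4% in KO and 39.1% in wild type over 10 CpGs), Inpp5f 56.7% (25.8% and 45.5% over the 9 CpGs covered in wild type) and Dlk1 61.0% (10.3% and 16.7% over 26 CpGs).

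Other imprinted promoters departed from that level. Meg3 had 67.6% in KO, 0% in TKO and 83.3% in wild type over 14 CpGs. Of these, 10 are in the stretch shown above, by a transcript start inside the gene. Nnat had 56.8% in KO, 0% in TKO and 27.3% in wild type over 14 CpGs, and Plagl1 60.1%, 0% and 35.9% over 5 CpGs, so that both were above wild type. Grb10 had 9.71% in KO and 0% in TKO over 116 CpGs, and Gnas 9.46% and 0% over 77 CpGs. Both means mix CpGs near the gene start with CpGs by transcript starts inside the gene. Single CpGs ranged from 0% to 56.6% in KO at Grb10 and from 0% to 52.9% at Gnas. The body of Gnas had 34.8% in KO and 0% in TKO over 24 CpGs and kept 98.6%. Igf2r, Ndn, Rasgrf1 and Peg12 were under 1.4% in KO. The body of Igf2r, which contains the start of Airn, had 43.9% in KO and 0% in TKO over 12 CpGs. Of these, 9 are the Airn promoter CpGs given above.

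Germline genes are needed in germ cells and are commonly silenced by promoter methylation elsewhere. Dpep3 had 76.3% in KO and 0% in TKO over 19 CpGs, of which wild type covered 4, with 72.3% there beside 73.0% in KO. Tex101, a sperm surface protein gene, had 72.1% and 0% over 6 CpGs, beside 72.8% in wild type, and Tuba3b, a testis tubulin gene, 71.4% and 0% over 8 CpGs, beside 83.0%. At Tex101 and Tuba3b the KO level was thus close to or somewhat under that of wild type. Dazl, an RNA-binding protein of germ cells, had 21.5% in KO and 0% in TKO over 34 CpGs, and 51.8% of its wild-type methylation was kept. Asz1, of the piRNA pathway, kept 48.4% (30.3% in KO, 62.6% in wild type, 15 CpGs), Sohlh2, a transcription factor of early germ cells, 35.8%, and Tuba3a 37.4%. Sycp1, Sycp2 and Sycp3, components of the synaptonemal complex, had 20.8%, 16.7% and 16.7% in KO. Stk31, Zp3 and Taf7l were under 2% in KO.

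Pluripotency promoters, which are active in ES cells, held almost no methylation in either library. Sox2 had 0.0836% in KO and 0% in TKO over 44 CpGs, Klf4 0% and 0% over 33, and Fgf4 0.102% and 0% over 56. Sall4 was the exception, with 14.8% in KO, 0% in TKO and 23.0% in wild type at its covered CpGs. Its 25 promoter CpGs lay between 168580461 and 168592536 and ranged from 0% to 74.2% in KO. As the gene starts at 168593443 on the minus strand, they include CpGs by a transcript start inside the gene. The developmental promoters, among them Hox, Pax and Gata genes, lay between -0.442 and 3.52 points, with Nkx2-5 highest over 7 CpGs. Their bodies were also low, with a median of 0.763 points over 26 genes beside 38.8 points over 4489 gene bodies with at least 5 CpGs. Pax2 had the highest body, with 14.1% in KO, 0.398% in TKO and 24 CpGs. Their kept shares varied: the body of Pax7 kept 78.4% over 42 CpGs and that of Pax2 58.1% over 10 CpGs, while the bodies of Gata2, Gata4 and Tbx5, heart and blood regulators, kept 32.4%, 28.1% and 22.8%.

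All 21 housekeeping promoters were under 1 point, with Actb at 0% in both libraries over 53 CpGs. The body of Polr2a, the large subunit of RNA polymerase II, had 74.5% in KO and 0% in TKO over 5 CpGs, that of Eef2, a translation factor, 26.3% and 0% over 27 CpGs, that of Hsp90ab1, a chaperone, 16.5% and 0% over 6 CpGs, and that of Tubb5, a tubulin, 3.39% and 0.392% over 17 CpGs. Among the methylation machinery, the promoters of Dnmt1 and Dnmt3b were at 0% in KO, and that of Dnmt3a had 8.15% in KO and 0% in TKO over 18 CpGs. The bodies of Dnmt1, Ehmt1, Tet3 and Uhrf1 had 76.1%, 74.7%, 65.5% and 57.9% in KO over 7, 8, 32 and 6 CpGs, beside at most 0.156% in TKO, whereas those of Dnmt3a and Tet1 had 17.5% and 2.34% in KO over 15 and 28 CpGs and 0% in TKO.

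A pair of promoters carried an outsized share of the reads. The promoters of Gm10800 and Gm10801 on chromosome 2, chosen after their depth was seen, held 49 joined CpGs and 23.6% of all TKO promoter reads. Their reads were methylated at 73.0% in Dnmt3a KO, 29.5% in wild type and 0.114% in Dnmt TKO. From summed reads, the promoter difference was 4.58 points with them and 1.32 points without them. Great depth with KO far above wild type was not particular to this pair. On chromosome 9, a CpG 531 bp from the start of Gm10722, thus also in a promoter, had 18389 TKO reads. It was methylated at 72.7% in Dnmt3a KO and 22.5% in wild type. A CpG 23599 bp from the start of Gm5614 had 28180 TKO reads, with 64.01% in Dnmt3a KO and 29.2% in wild type. Whether the reads at any of these places stem from repeated copies was not tested.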

How the data were processed

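Mouse ES cells of 3 genotypes (wild type, Dnmt3a KO, Dnmt TKO) were profiled by RRBS, 1 library each. According to the methods and labels, DNA was cut with MspI, inserts of both size ranges were bisulfite-treated and amplified, and reads were trimmed with Trim Galore and aligned to mm9 with Bowtie through QuasR, versions not given in the sources used here. CpGs over SNPs were removed. The authors deposited, per CpG, unnormalized counts of all and of methylated reads, plus a methylated fraction that equals the quotient of these counts. Whether a table pools both size ranges is not stated.

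The deposited counts were joined by position, and CpGs with more than 10 reads in Dnmt3a KO and Dnmt TKO were kept. Every listed position on chromosomes 1 to 19, X and Y was a CG in mm9. Genes, exons and starts came from GENCODE vM1. Differences are means over CpGs. Fisher's exact test (two-sided, Benjamini-Hochberg over all 332610 CpGs, q under 0.05 and at least 20 points) compares libraries. On simulated counts at the real depths, 169 of 200 CpGs with 80 points and 5 of 200 with 40 points were called, and with 5000 changed CpGs 4867 and 331, with 0 false calls. The simulations changed far fewer CpGs than the 51571 called in the data. As the adjustment depends on that number, these rates need not hold for the real calls. The members and gene lists were chosen with earlier results of these data known. Named loci are the 10 promoters (at least 5 CpGs), 10 gene bodies (at least 10 CpGs) and 5 intergenic windows of 1000 bp (at least 5 CpGs) with the largest difference, and list members with at least 5 CpGs. Alternatives varied the coverage minimum, weighting, highest coverage, chromosomes, depth, distance to MspI sites, promoter and density definitions and call limits. Python 3.11.15, numpy 2.4.6, pandas 2.3.3, scipy 1.17.1, numba 0.67.0 and matplotlib 3.10.9 were used.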

Additional observations from a re-analysis of the deposited data

Results flagged for a closer look

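The annotated classes leave out 565 joined CpGs on mitochondrial DNA and on sequences not placed within a chromosome. There the mean was 28.3% in Dnmt3a KO and 0.0856% in Dnmt TKO, a difference of 28.2 percentage points (95% interval 27.6 to 28.8), above the TKO level, and 35.4% of these CpGs were called higher beside 15.5% of all joined CpGs. The 102 CpGs on unplaced sequence of unknown chromosome had 47.4% in KO, 0.220% in TKO and, where covered, 45.3% in wild type. On unplaced sequence of chromosomes 1, 4, 8 and 9, with 183, 55, 79 and 62 CpGs, the KO mean was 28.8%, 45.8%, 16.3% and 16.0%, and the TKO mean was at most 0.0717%. These CpGs lie outside every class compared above and are given here for that reason, and the sequences' gene content was not analysed here.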

How the results depend on the processing

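Of 69 alternative values, 18 stayed within the counting interval of the main value, or within 1.5 times the count, and 51 moved out of it. Of these values 0 changed sign, but with TKO near 0 throughout, a change of sign was hardly possible. In all 7 settings applied to every class, promoters were lowest, introns highest and CpG-dense DNA below CpG-sparse DNA. With more than 20 reads in both libraries, 42480 CpGs were left, 31743 of them CpG-dense, and the difference was 6.78 points over all CpGs, 1.32 in promoters, 19.8 in exons, 25.3 in introns, 13.9 in intergenic, 0.740 in CpG-dense and 52.2 in CpG-sparse DNA, with 4172 CpGs called. With methylated reads divided by all reads, it was 10.3 over all CpGs, 4.58 in promoters, 24.5 in exons, 29.7 in introns, 13.8 in intergenic, 0.681 in CpG-dense and 56.5 in CpG-sparse DNA; without Gm10800 and Gm10801 this gave 8.46 over all CpGs and 1.32 in promoters. Without the highest 1% of coverage it was 13.1, 1.49 in promoters, 30.6 in exons, 37.5 in introns, 25.7 in intergenic and 49.6 in CpG-sparse DNA. On autosomes it was 13.0, 37.5 in introns and 0.747 in CpG-dense DNA. Within 150 bp of MspI sites it was 12.5, 1.44 in promoters, 30.1 in exons, 36.7 in introns, 24.99 in intergenic, 0.760 in CpG-dense and 49.4 in CpG-sparse DNA. Without chromosomes 1 and 8 it was 11.5, 1.46 in promoters, 29.1 in exons, 34.9 in introns, 23.0 in intergenic, 0.758 in CpG-dense and 48.8 in CpG-sparse DNA, with 34133 called of the 257442 CpGs left. Promoters within 500 bp and 2000 bp of a start had 1.18 and 2.33 points. Density counted in 500 bp gave 0.279 in CpG-dense and 48.3 in CpG-sparse DNA. With 10 reads drawn per library, 30735 CpGs were called. The share of wild-type methylation kept was 71.7% with more than 20 reads in all libraries, 100.6% by reads, 73.1% without the highest coverage, 73.0% near MspI sites and 72.3% without chromosomes 1 and 8. Beyond the smaller sets, the cause of these shifts was not tested. Of 117 further values for density steps by class, distance steps and flanking base, 14 stayed within the counting interval used and 103 moved out of it. For density and distance steps this was the interval of the main value. For the flanking base, the width of the interval of the overall kept share was used. Again 0 changed sign, where a change was hardly possible. Some of these further values turned an order between steps or classes, and examples stand beside the results. The alternatives for these steps, without chromosomes 1 and 8 and without Gm10800 and Gm10801 were chosen after seeing the data.

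No paired analysis was possible because each genotype has 1 library. The TKO depth, with a median of 14 reads, limits single CpGs. Intervals hold no variation between cultures, clones or strains.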
